A study of Mus musculus with 23 samples.

Results

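The hippocampal transcriptome of mice labelled Dp16;D-KO/K-KO was compared with that of mice labelled Dp16, in 5 and 7 libraries of a series of 23. All 12 libraries came from carriers of Dp16, the Dp(16)1/Yey duplication, which gives an additional copy of the stretch of mouse chromosome 16 whose genes lie on human chromosome 21. The Dp16;D-KO/K-KO animals also carried knockout alleles of Dyrk1a and of Kcnj6, described in the labels as correcting the dosage of both genes. The other libraries were 6 labelled Dp16/D-KO, with the Dyrk1a knockout alone, and 5 wild type (WT), and these entered the model but not the comparison. Batch 1, whose molecule label is total RNA, was on C57BL/6 at 2 to 3 months of age and held 2 Dp16;D-KO/K-KO and 3 Dp16 libraries. Batch 2, whose molecule label is polyA RNA, was at over 90% C57/B6, has no age in the labels, and held 3 and 4. The letter F or M in a title marks sex, with 2 F and 3 M libraries against 3 F and 4 M. Neither the number of knockout alleles per animal, nor the part of each gene that they remove, nor whether every library is a separate animal is stated by the labels, so p-values measure the spread between these libraries. Levels are RPKM, reads scaled to gene length and to the mapped reads of the library by the authors, and 13971 genes with a mean of at least 0.5 RPKM over all 23 libraries were tested.

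Dyrk1a encodes a kinase that phosphorylates NFAT transcription factors, and so opposes calcineurin, and that phosphorylates D-type cyclins, which drive cell cycle entry in neural progenitors. Kcnj6 encodes GIRK2, a subunit of the potassium channels that GABA-B and other G-protein-coupled receptors open to quiet hippocampal neurons. Both genes lie in the duplicated segment and have long been studied as contributors to the cognitive features of Down syndrome. Comparing animals that have the segment in excess with animals in which these genes are returned towards the normal copy number asks what part of the hippocampal transcriptome depends on the additional copies.

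Some libraries carried RNA of neighbouring or other tissue, and this touches several results. Markers of cerebellar granule and Purkinje neurons, a list chosen after values were seen, summed to 240.1 RPKM in Dp16;D-KO/K-KO M2 and 52.26 in M1, against 17.69 to 29.68 in the other 3 libraries of the group and 11.36 to 32.94 in Dp16. Gabra6, a GABA-A receptor subunit of cerebellar granule neurons, was at 18.56 RPKM in M2 and 2.22 in M1 and at no more than 0.48 in any Dp16 library. M1 and M2 are also the only batch 1 libraries of their group, so values without them rest on batch 2 for Dp16;D-KO/K-KO, and the cerebellar transcripts and the batch cannot be told apart there. All 10 tested genes of that list lay above Dp16, with a median log2 difference of 3.12 in batch 1 and 0.16 in batch 2. The filter is a mean over all 23 libraries, which such a gene could pass through M1 and M2 alone. This count therefore follows in part from the choice of genes and is no separate result. The choroid plexus, the epithelium that makes cerebrospinal fluid, gave summed marker levels of 1976 to 4464 RPKM in 4 Dp16;D-KO/K-KO libraries and 88.52 in M3. In Dp16 the same sum was 2702 to 4495 RPKM in F2, F3 and M2 and 105.9 to 199.0 in the other 4. All 18 choroid plexus markers had a higher fitted level in Dp16;D-KO/K-KO, none of them with an unadjusted p under 0.05, and the median log2 difference was 2.04 in batch 1 and -0.55 in batch 2. Skeletal muscle genes summed to 450.7 RPKM in Dp16 M2 and to at most 6.02 in every other library of both groups. In the WT group, Ddx3y, a gene of the Y chromosome, stood at 12.65 RPKM in F1 and 0.01 in M3, against their letters. Without these libraries 7 genes were called in the comparison, Chac1 and Cars among them as lower, and Rec8 was not (limma adjusted p = 0.0528). In bulk tissue, fewer cells of a type and less RNA per cell cannot be told apart.

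**Figure D1:**
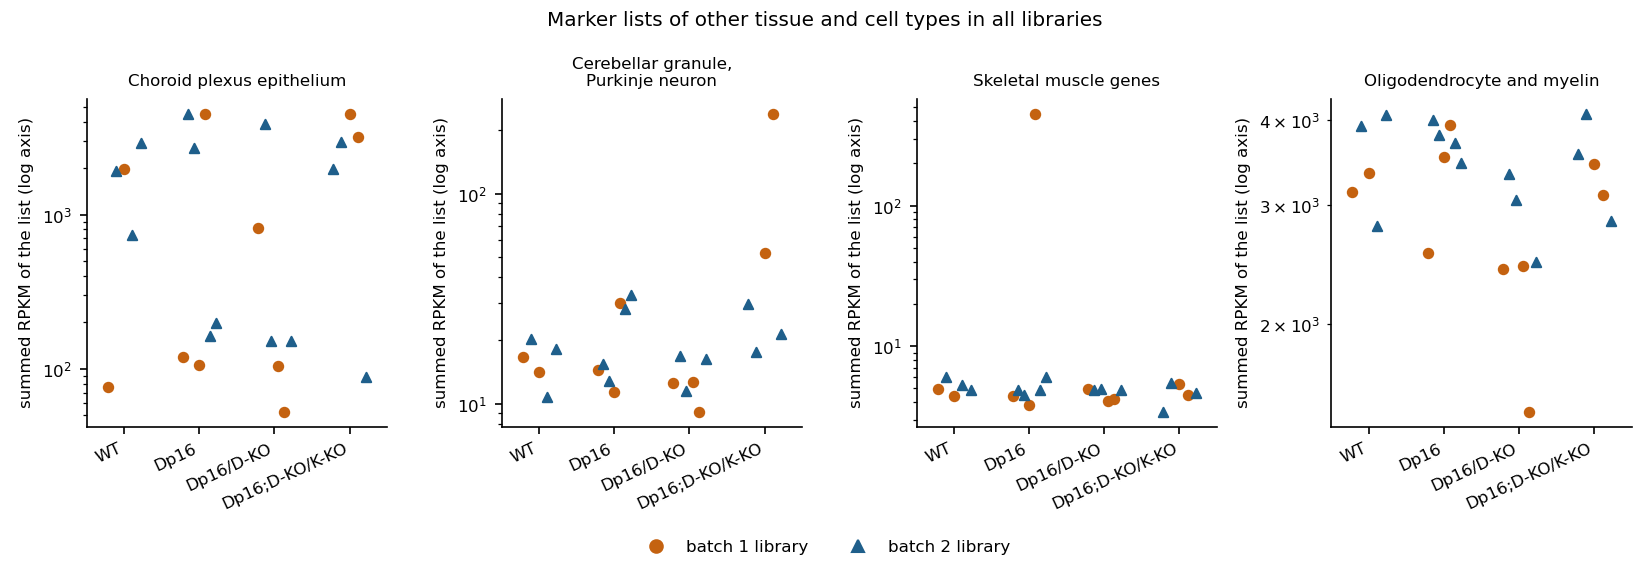
Summed RPKM (log axis) of 4 marker lists in each of the 23 libraries, by genotype label on the horizontal axis, with circles for batch 1 and triangles for batch 2. Cerebellar markers stood apart in Dp16;D-KO/K-KO M2 at 240.1 RPKM, muscle genes in Dp16 M2 at 450.7 RPKM, and the choroid plexus markers had high and low libraries in all 4 groups.

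The targeted genes did not separate libraries with the label Dp16;D-KO/K-KO from Dp16. Dyrk1a was at 24.31 RPKM in F1, 22.31 in F2, 25.26 in M1, 26.03 in M2 and 25.44 in M3, and ran from 22.68 through a median of 24.00 to 26.61 in Dp16. The groups overlapped across almost their whole range. Their log2 difference was 0.02, with a 95% confidence interval from -0.07 to 0.11 (limma adjusted p = 0.889), while going from 3 to 2 copies in proportion would give -0.58. Kcnj6 was at 27.13, 26.01, 24.89, 23.10 and 26.96 RPKM in the same order, and ran from 23.16 through 25.06 to 31.89 in Dp16. These values overlapped too, with a log2 difference of -0.06 and an interval from -0.23 to 0.10 (limma adjusted p = 0.822). WT libraries were at 15.36 to 18.04 RPKM for Dyrk1a and 15.28 to 20.36 for Kcnj6, below every library of both groups. A level summed over a whole gene can include transcripts of an allele that lacks part of it, so these values neither check the labels nor measure the remaining function of either gene.

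**Figure D2:**
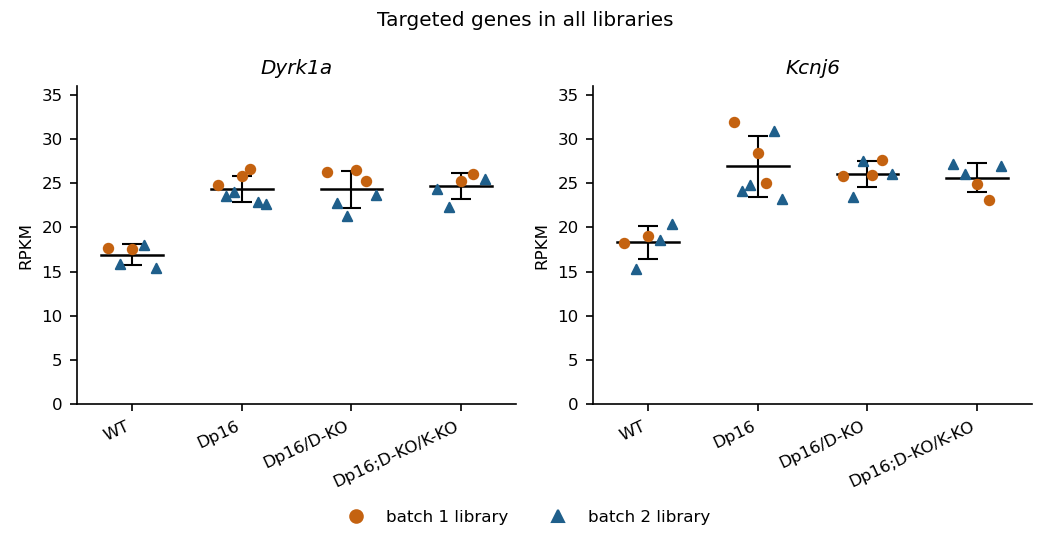
RPKM of Dyrk1a and Kcnj6 in every library by genotype label, with circles for batch 1, triangles for batch 2, and bars for the mean and SD of each group. The 5 Dp16;D-KO/K-KO libraries lie within the range of the 7 Dp16 libraries for Kcnj6 but for 23.10 RPKM in M2, and 1 Dyrk1a value, 22.31 RPKM in F2, lies just under it.

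Of the 13971 genes, 5 passed an adjusted p of 0.05 (0.0358%), and all 5 were higher in Dp16;D-KO/K-KO. They were Rfx5, Pik3r3, Rec8, Tmem181a and Dynlt1f, and none of them lies on chromosome 16. At an unadjusted p under 0.05 there were 930 genes above Dp16 (6.66%) and 643 below it (4.60%), and 8155 of all tested genes (58.4%) had a positive log2 difference. In 92 genes (0.659%) the libraries of the groups did not overlap, 46 in each direction. Scaling each library by its median ratio to the others gave 5 higher and 5 lower calls in place of 5 and 0, the lower ones being Chac1, Fam217b, Krt9, Nars and Tspyl4. The number of calls depended on single libraries. Without F2, without M1 or without M2 no gene was called by limma, with 1264, 1310 and 1142 genes at an unadjusted p under 0.05, and without M3 there were 2 calls. Without the choroid-rich Dp16 libraries F2, F3 and M2 there were 6 calls, of which only Rec8 is among the 5, the other 4 having limma adjusted p-values of 0.0555 to 0.0790. The authors' deposited table holds 44 genes with an adjusted p under 0.05 among 15707 that have one (0.28%). The 44 split into 17 higher (0.108% of the 15707) and 27 lower (0.172%), and include all 5 genes called here. Those results come from the same series, so the shared calls are no separate support. The higher ones include En2, Cnpy1, Fat2 and Pcp2 of the cerebellar list, and the lower ones Ttn of the muscle list.

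Rfx5 encodes the DNA-binding subunit of the RFX complex, which activates the promoters of major histocompatibility complex class II genes. It was at 6.20 RPKM in F1, 6.87 in F2, 6.67 in M1, 6.74 in M2 and 6.32 in M3 of Dp16;D-KO/K-KO. Dp16 ran from 4.12 through a median of 4.44 to 5.40, so the lowest Dp16;D-KO/K-KO library was above the highest of Dp16. The gene (chr3:94953100-94974600 in mm10, the deposited position being rounded) rose 1.41-fold, a log2 difference of 0.49 with a standard error of 0.07 (limma adjusted p = 0.0123). WT stood at 6.51 ± 0.34 RPKM (SD, n = 5) and Dp16/D-KO at 6.12 ± 0.68 (SD, n = 6). Within the batches the log2 difference was 0.66 and 0.42. Without M1 and M2, the libraries with cerebellar transcripts, it was 0.43 (limma adjusted p = 0.533).

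The partners of Rfx5 and its targets gave smaller differences. Rfxank and Rfxap, the other subunits of the complex, had log2 differences of 0.20 and 0.12 with unadjusted p-values of 0.00985 and 0.0240, neither passing the test. A list of RFX and class II genes was chosen after values were seen and includes Rfx5 itself. Of its 9 tested genes 5 had a positive difference, with a median of 0.12, where 58.4% of all genes had one. The 3 with an unadjusted p under 0.05 were Rfx5, Rfxank and Rfxap, all higher, beside 6.66% of all genes. No class II gene was among them. The class II chains H2-Ab1 and H2-Aa were at -0.27 and -0.15, and the invariant chain gene Cd74 at 0.46. Ciita, the master activator of class II genes, was under the 0.5 RPKM filter, at 0.13 to 0.44 in the 12 libraries.

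Pik3r3, which encodes the regulatory subunit p55-gamma of phosphoinositide 3-kinase, was at 11.56, 11.21, 12.48, 14.62 and 10.79 RPKM in F1, F2, M1, M2 and M3. In Dp16 it ran from 8.08 through 9.10 to 10.57, with no overlap between the groups but little distance between M3 and the highest Dp16 library. The gene (chr4:116221000-116333000) rose 1.33-fold, by 0.41 ± 0.06 on the log2 scale (SE, limma adjusted p = 0.0123). M2 and M1, which hold cerebellar transcripts, had its highest levels, and without them the log2 difference was 0.30 (limma adjusted p = 0.533). Among 21 tested genes of the insulin and phosphoinositide 3-kinase pathway, a list chosen after values were seen, 17 had a positive difference, and the median was 0.04. Foxo3 at 0.15 and Rheb at 0.10 had an unadjusted p under 0.05.

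Rec8, the meiotic member of the kleisin subunits that close the cohesin ring, had the largest fold among the 5 called genes at the lowest level. It was at 1.79, 1.92, 2.25, 2.64 and 1.41 RPKM in the same library order, and in Dp16 it ran from 0.30 through 0.53 to 1.21. The groups did not overlap, M3 being the lowest and nearest to Dp16. M2 and M1, which hold cerebellar transcripts, had the highest levels, and without them Rec8 was not called by limma. Rec8 (chr14:55618000-55625400) rose 2.75-fold, by 1.46 ± 0.26 on the log2(RPKM + 0.1) scale (SE, limma adjusted p = 0.0419). This was the least stable call: with the replicate label as a block its adjusted p was 0.142, and leaving out any 1 of 9 libraries lifted it above 0.05. WT stood at 1.17 ± 0.42 RPKM (SD, n = 5) and Dp16/D-KO at 1.27 ± 0.28 (SD, n = 6).

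Tmem181a and Dynlt1f are neighbours on chromosome 17, in a block that the reference holds in several near-identical copies, so the split of reads among them is uncertain. Tmem181a, which encodes a membrane protein, was at 82.60, 119.3, 148.7, 129.4 and 121.9 RPKM in F1, F2, M1, M2 and M3, and ran from 56.75 through 67.99 to 75.96 in Dp16. F1 was close to Dp16 and the other 4 libraries were far above it. The highest levels of Tmem181a were in M1 and M2, which hold cerebellar transcripts. Without M1 and M2 neither Tmem181a nor Dynlt1f was called by limma. In all libraries the log2 difference of Tmem181a was 0.85 ± 0.14 (SE, limma adjusted p = 0.0123), a 1.80-fold rise. Dynlt1f, a dynein light chain gene, was at 19.55, 28.39, 23.46, 17.72 and 31.55 RPKM against 8.02 through 14.59 to 15.81, without overlap. It rose 1.93-fold, by 0.95 ± 0.15 on the log2 scale (SE, limma adjusted p = 0.0123), while the authors' deposited table gives it a log2 fold change of 0.44. The copies Dynlt1a, Dynlt1b and Dynlt1c had log2 differences of 0.37, 0.82 and 0.65 and did not pass the test. Entpd4b, a copy of the nucleotide-hydrolysing enzyme gene Entpd4 on chromosome 14, was at -0.74 (limma adjusted p = 0.1), and Entpd4 itself at -0.59.

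**Figure D3:**
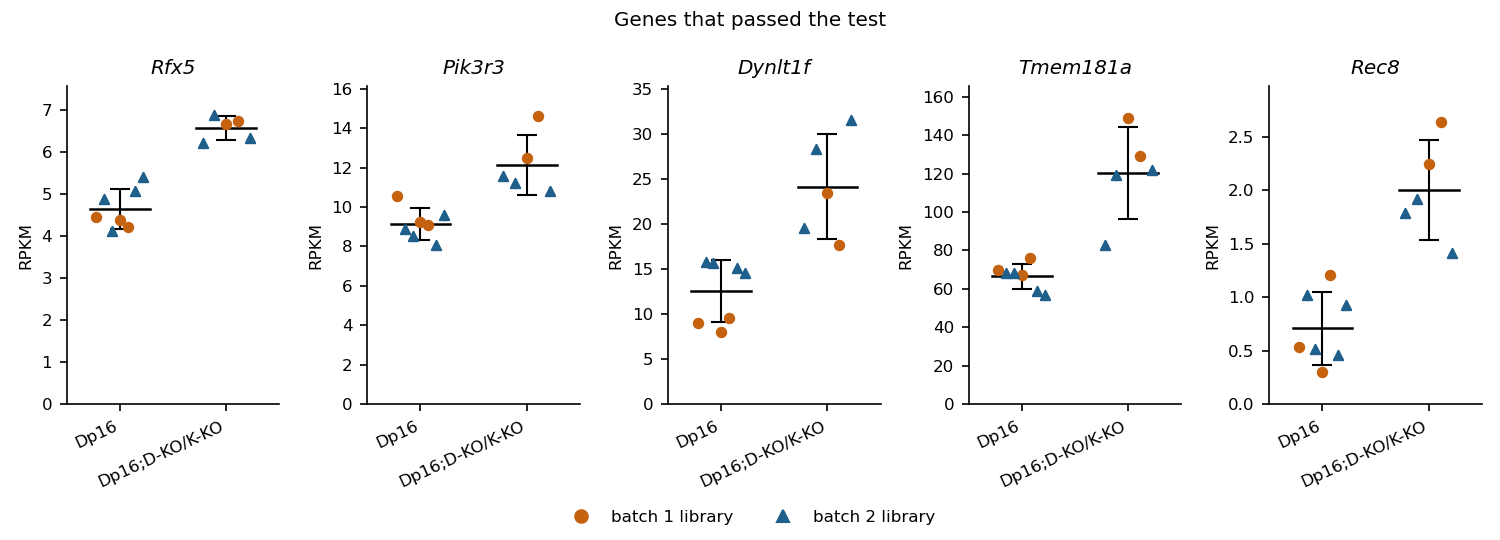
RPKM of the 5 genes that passed the test in the 7 Dp16 and 5 Dp16;D-KO/K-KO libraries, with circles for batch 1, triangles for batch 2, and bars for mean and SD. In each panel every Dp16;D-KO/K-KO library lies above every Dp16 library, with the nearest values close together for Pik3r3 (10.79 against 10.57 RPKM) and Rec8 (1.41 against 1.21 RPKM).

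The 15 genes next in order of p, with a mean of at least 1 RPKM, did not pass the test, and their adjusted p-values ran from 0.0653 to 0.103. Tspyl4, of a nucleosome assembly family, had a log2 difference of -0.20, Fam217b of -0.24 and the keratin gene Krt9 of -0.53. The neuronal calcium sensor gene Ncald was at 111.9 to 127.7 RPKM against 136.4 to 166.4 in Dp16, without overlap, and its log2 difference was -0.28. On the other side, Cacna1g, which encodes the T-type calcium channel Cav3.1, was at 0.31 and Pnrc2, which takes part in messenger RNA decay, at 0.31. N4bp2 was at 0.44 and the copine gene Cpne9 at 0.49. Cpne9 differed between batches more than the rest, at 0.87 in batch 1 and 0.28 in batch 2, but the batch interaction did not pass adjustment (limma unadjusted p = 0.0015, adjusted p = 0.686). All 20 named genes had the same sign in both batches. They were chosen for small p-values in this contrast, and 12 of the 20 had libraries that did not overlap, beside 0.659% of all genes. Genes chosen in this way tend to separate and to agree between batches, so neither count is separate support. The remaining 7 of these 15 genes are described with their pathways or gene copies.

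The integrated stress response, in which phosphorylated eIF2-alpha raises translation of the transcription factor ATF4 and ATF4 then induces genes of amino acid supply, had members in opposite directions. Of 22 tested genes of this response and the unfolded protein response, 16 had a positive difference and 6 a negative one, with a median of 0.08 against 0.02 over all genes. An unadjusted p under 0.05 was found for 4 higher and 5 lower members, where 6.66% and 4.60% of all genes had one. No member passed adjustment. The lower ones were Atf4 and the amino acid genes Chac1, Asns, Shmt2 and Mthfd2, and the higher ones were Ddit3 and the endoplasmic reticulum genes Sdf2l1, Hspa5 and Xbp1.

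Atf4 was at 52.91 RPKM in F1, 54.44 in F2, 60.17 in M1, 61.41 in M2 and 53.92 in M3. Dp16 ran from 67.80 through 73.77 to 87.43, so all 5 libraries lay below the lowest Dp16 library. The log2 difference was -0.41 ± 0.09 (SE, limma adjusted p = 0.0752), with -0.35 in batch 1 and -0.46 in batch 2. Chac1, an enzyme that degrades glutathione and a target of ATF4, was at 2.80, 2.57, 2.91, 2.66 and 2.95 RPKM against 3.86 through 4.89 to 5.93. The groups were again apart, with a log2 difference of -0.79 ± 0.15 (SE, limma adjusted p = 0.0653) and -0.89 and -0.75 within the batches. Asns, asparagine synthetase, was at 39.45, 41.25, 43.16, 44.28 and 42.10 RPKM against 42.04 through 51.81 to 53.40. A single low Dp16 library overlapped there, and the log2 difference was -0.25 ± 0.06 (SE, limma adjusted p = 0.143). Ddit3, which encodes the stress factor CHOP, was on the other side at 17.94, 18.84, 21.91, 21.85 and 17.99 RPKM against 13.82 through 17.01 to 20.45. Its groups overlapped, and the log2 difference was 0.19 ± 0.06 (SE, limma adjusted p = 0.22).

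Cytosolic aminoacyl-tRNA synthetases, which load amino acids on tRNA and many of which ATF4 induces, lay mostly below Dp16. The list was chosen after values were seen. Of its 20 genes 17 had a negative difference, with a median of -0.06, and 7 had an unadjusted p under 0.05, all of them lower, where 4.60% of all genes were lower at that level. In 4 (Iars, Gars, Rars and Aars) the libraries did not overlap, where 0.329% of all genes were apart in that direction. Cars, for cysteine, was at 11.92, 11.62, 14.90, 13.34 and 12.53 RPKM against 14.36 through 16.33 to 17.53, and only M1 reached into the Dp16 range. The log2 difference was -0.34 ± 0.07 (SE, limma adjusted p = 0.0730). Nars, for asparagine, was at -0.19 (limma adjusted p = 0.0730), Iars, for isoleucine, at -0.17 (limma adjusted p = 0.121) and Gars, for glycine, at -0.15 (limma adjusted p = 0.176).

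Whether these genes were called depended on the libraries in the model. With the 12 libraries of the groups alone Chac1, Atf4 and Cars passed (limma adjusted p = 0.00486, 0.00908 and 0.0153), and without the WT group they passed as well. Without M1 and M2 their log2 differences were -0.66, -0.41 and -0.32 (limma adjusted p = 0.533 for each). In the authors' deposited table Chac1, Atf4, Iars, Nars, Asns, Gars and Cars carry adjusted p-values of 0.00475, 0.0107, 0.0296, 0.0322, 0.0430, 0.0430 and 0.0437, all of them lower.

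ATF4 acts on DNA through a composite element whose core reads TGATGNAA, or TTNCATCA on the other strand. RefSeq windows of GRCm38.p6, from 250 bases before to 50 after a transcript start, were searched for it on both strands. Of 11113 tested genes with a window 314 (2.83%) held the element, as did 3 of 20 stress response genes (15%) and 5 of 13 synthetase genes (38.5%). These shares leave out genes without a window, as only 13 of 20 synthetase and 20 of 22 stress response genes had one. Cars had none. A match describes the letters and not a bound site. The window of Atf4 itself held none. The windows of 4 lower genes are shown because they hold the element, with its bases in capitals.
Chac1, chr2:119350992-119351291, plus strand: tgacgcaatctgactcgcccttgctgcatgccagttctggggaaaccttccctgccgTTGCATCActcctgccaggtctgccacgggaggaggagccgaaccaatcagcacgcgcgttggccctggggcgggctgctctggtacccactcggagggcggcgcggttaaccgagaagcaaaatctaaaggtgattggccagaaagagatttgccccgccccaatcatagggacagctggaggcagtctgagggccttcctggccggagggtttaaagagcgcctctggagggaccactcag
Asns, chr6:7693160-7693459, minus strand: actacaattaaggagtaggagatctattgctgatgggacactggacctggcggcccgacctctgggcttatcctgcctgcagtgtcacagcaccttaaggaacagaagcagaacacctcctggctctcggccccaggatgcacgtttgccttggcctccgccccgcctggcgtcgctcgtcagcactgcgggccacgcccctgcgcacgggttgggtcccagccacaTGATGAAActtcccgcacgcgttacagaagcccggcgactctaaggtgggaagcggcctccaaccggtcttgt
Iars, chr13:49681880-49682179, plus strand: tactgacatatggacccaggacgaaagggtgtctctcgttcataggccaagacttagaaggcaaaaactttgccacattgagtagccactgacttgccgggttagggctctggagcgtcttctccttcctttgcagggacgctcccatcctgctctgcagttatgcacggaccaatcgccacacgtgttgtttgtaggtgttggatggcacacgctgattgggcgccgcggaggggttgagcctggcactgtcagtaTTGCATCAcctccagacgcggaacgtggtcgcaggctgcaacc
Gars, chr6:55037751-55038050, plus strand: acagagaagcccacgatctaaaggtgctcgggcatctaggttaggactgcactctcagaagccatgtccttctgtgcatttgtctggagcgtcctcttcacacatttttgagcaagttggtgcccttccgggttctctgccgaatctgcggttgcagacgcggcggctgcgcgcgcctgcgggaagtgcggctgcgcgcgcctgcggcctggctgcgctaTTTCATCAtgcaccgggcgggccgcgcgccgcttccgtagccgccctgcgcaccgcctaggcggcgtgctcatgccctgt
The element began 193 bases before the start in Chac1, 23 before it in Asns and 30 before it in Gars. In Iars it began at base 8 of the transcript. Beside these sequences stand the log2 differences of -0.79 for Chac1, -0.25 for Asns, -0.17 for Iars and -0.15 for Gars.

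**Figure D4:**
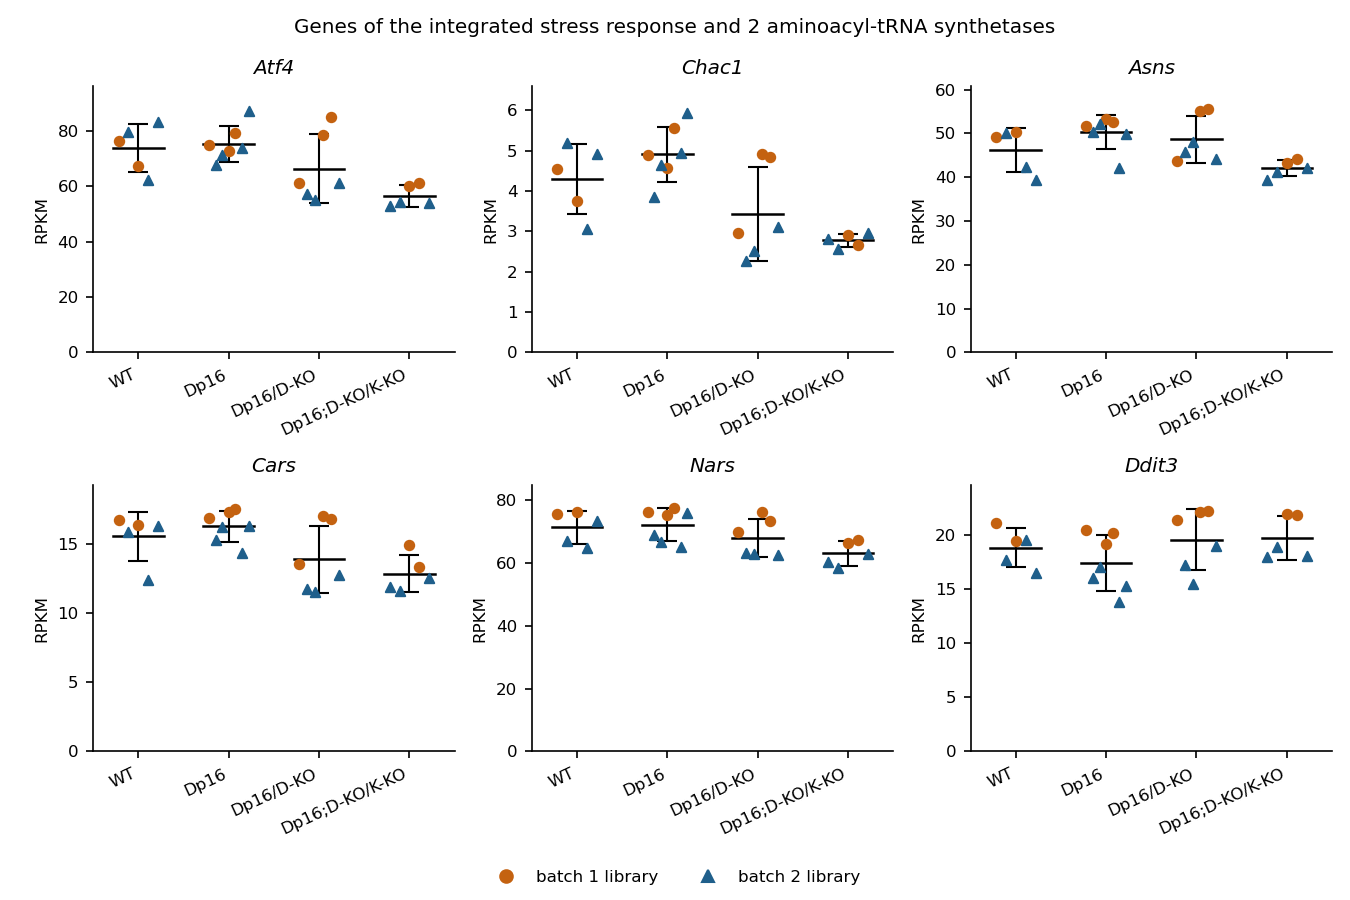
RPKM of Atf4, Chac1, Asns, Cars, Nars and Ddit3 in every library by genotype label, with circles for batch 1, triangles for batch 2, and bars for mean and SD. The 5 Dp16;D-KO/K-KO libraries lie below all Dp16 libraries for Atf4 and Chac1, while Dp16/D-KO libraries spread over both ranges.

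Genes of the circadian clock, a loop in which CLOCK and BMAL1 drive their own repressors through E-box elements, were mostly above Dp16. Of 19 tested 16 had a positive difference, with a median of 0.12, where 58.4% of all genes had a positive one. At an unadjusted p under 0.05 there were 7, all of them higher, beside 6.66% of all genes, and none passed adjustment. Nr1d2, which encodes the repressor REV-ERB-beta, was at 19.47, 20.65, 17.81, 20.53 and 18.10 RPKM against 13.95 through 16.48 to 18.48, and the ranges just overlapped. Its log2 difference was 0.25 ± 0.06 (SE, limma adjusted p = 0.103). Per2 was at 9.24 to 10.72 RPKM against 7.02 to 9.08 and did not overlap, at a log2 difference of 0.26 (limma adjusted p = 0.180). Per3 was at 0.33, Tef at 0.22 and Dbp, whose libraries also stayed apart, at 0.38. The sources used here do not state the time of day at dissection, and its part in these values was not tested. The E-box CACGTG was found in the windows of 5 of 17 clock genes (29.4%) and in 1257 of 11113 tested genes (11.3%). It was as frequent in the synthetase genes, which lay mostly below Dp16, at 4 of 13 (30.8%). Per2 had no window. Tef held 1 in each of its 2 windows and Nr1d2 and Per3 held none.

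Around Dyrk1a, 18 of 29 tested paralogues, substrates and calcineurin-NFAT genes had a positive difference, with a median of 0.08, which fell to 0.02 when a mean of at least 1 RPKM was required. An unadjusted p under 0.05 was found for 6 higher and 2 lower members, beside 6.66% and 4.60% of all genes, and none passed adjustment. Ccnd2, a D-type cyclin and a substrate class of the kinase, was at 20.42, 17.39, 15.36, 16.47 and 16.28 RPKM against 12.40 through 14.03 to 16.54. F1 and F2 were above all Dp16 libraries, the others overlapped, and the log2 difference was 0.26 ± 0.05 (SE, limma adjusted p = 0.0730). Ccnd1 was at 0.24 and the receptor Notch1 at 0.27, both with larger values in batch 2 (0.36 and 0.39) than in batch 1 (0.09 and 0.12). Ppp3r1, the regulatory subunit of calcineurin, was at -0.15 (limma adjusted p = 0.176). Rcan1, a calcineurin inhibitor that is itself in the duplicated segment, was at 28.32 to 32.24 RPKM against 27.54 to 34.15 and had a log2 difference of 0.02.

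Cyclins D1 and D2 also stand in the list of neurogenesis and cell cycle genes, where 18 of 20 tested members had a positive difference, with a median of 0.13 and 5 higher at an unadjusted p under 0.05, beside 6.66% of all genes. That median was 0.03 in batch 1. Sox11, a factor of immature neurons, was at 0.23. Eomes, a marker of intermediate progenitors that is also used by cells of the cerebellum, was at 1.06, 0.41, 0.82, 3.96 and 0.76 RPKM against 0.16 to 0.80, the highest value being that of M2, which holds cerebellar transcripts. The proliferation genes Mki67 and Top2a were under the filter of 0.5 RPKM.

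Around Kcnj6, the 22 tested GIRK subunits, GABA-B receptor genes and their regulators split evenly, 11 above and 11 below, with a median of 0.00. An unadjusted p under 0.05 was found for 2 higher and 3 lower members, beside 6.66% and 4.60% of all genes. Kcnj3, which encodes GIRK1, the partner that GIRK2 assembles with in hippocampal neurons, was at 32.26, 33.70, 27.88, 27.40 and 33.90 RPKM against 27.72 through 35.15 to 40.79. The groups overlapped and the log2 difference was -0.18 ± 0.06 (SE, limma adjusted p = 0.270), with -0.16 and -0.17 in the batches. Kcnj9, for GIRK3, was at 23.3 ± 3.55 RPKM (SD, n = 5) against 23.3 ± 3.73 (SD, n = 7). The GABA-B receptor genes Gabbr1 and Gabbr2 had log2 differences of 0.00 and -0.05. Snx27, a sorting nexin that traffics GIRK channels, was at 0.11, and Gnb5 and Rgs7, which form a complex that speeds channel closure, were at 0.10 and -0.13.

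The duplicated segment outside the targeted genes was at nearly the same level in both groups. Of 79 tested genes 45 had a positive difference and 34 a negative one, with a median of 0.02, the same as over all genes. At an unadjusted p under 0.05 there were 5 higher and 7 lower, beside 6.66% and 4.60% of all genes, and none passed adjustment. App, the amyloid precursor protein gene, was at 747.3, 745.2, 686.0, 725.4 and 756.6 RPKM against 776.7 through 791.5 to 800.5 in Dp16. All 5 libraries lay below Dp16, by 0.11 ± 0.03 on the log2 scale (SE, limma adjusted p = 0.209), while WT was at 485.2 to 508.9. Ttc3, a ubiquitin ligase gene, did not overlap either, at -0.12 (limma adjusted p = 0.277). Among the 79 genes, App and Ttc3 were the 2 lower ones without overlap, and 1 was apart as higher. Over all genes 0.329% were apart in each direction. Usp25 and Dscam were at -0.14 and -0.12. The largest positive values were those of Kcne2 at 1.36 and Clic6 at 0.88, genes that choroid plexus epithelium uses, and for Kcne2 the value was 2.86 in batch 1 and -0.44 in batch 2. Mouse genes with a human chromosome 21 counterpart outside the segment had a positive difference in 33 of 42, with a median of 0.06.

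No gene of the synaptic, channel, neuropeptide and immediate early lists passed adjustment. Of 21 tested genes of presynaptic vesicle release 17 had a negative difference, with a median of -0.07, and 5 had an unadjusted p under 0.05, all lower, while 58.4% of all genes had a positive difference and 4.60% were lower at that level. Vamp1, a vesicle SNARE, was at -0.18, but with -0.03 in batch 1 and -0.26 in batch 2. Syp (synaptophysin) was at -0.12 and the calcium sensor Syt1 at -0.12. Glutamate and GABA-A receptor subunits split into 13 above and 20 below, with Gabra2 at 0.51 and Grin2b at -0.47, the latter at -0.95 in batch 1 and -0.08 in batch 2. Potassium channels other than GIRK split into 19 and 21, and voltage-gated calcium channels into 6 and 12. Among neuropeptides and neurotrophins 13 of 20 were below Dp16, with Cort (cortistatin) at -0.72, Tac1 at -0.31 and Bdnf at -0.23, while Nptx2, a neuronal pentraxin gene, was at 0.28 and the enkephalin gene Penk at 0.26. Immediate early genes, which neuronal firing induces, were above Dp16 in 21 of 25, with a median of 0.11 that went to -0.04 without the Dp16 libraries F2, F3 and M2. Egr3 was at 0.28 and Fosb at 0.38, with 0.09 in batch 1 and 0.65 in batch 2 for Fosb. Bdnf, which was lower, is also in the immediate early list and had its smallest p. At an unadjusted p under 0.05 that list had 3 higher and 1 lower members, beside 6.66% and 4.60% of all genes.

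Metabolic and housekeeping lists had medians within 0.2 of 0 on the log2 scale. Cholesterol and fatty acid synthesis genes were below Dp16 in 21 of 24, with a median of -0.06 and 4 lower at an unadjusted p under 0.05 (4.60% of all genes), among them Scd1, a fatty acid desaturase, at -0.24 and Hmgcs1, of sterol synthesis, at -0.22. Nuclear-encoded oxidative phosphorylation genes split into 22 above and 24 below, with 6 lower and 1 higher at an unadjusted p under 0.05, beside 4.60% and 6.66% of all genes. Cytosolic ribosomal protein genes split into 53 and 28, with a median of 0.05 that was -0.03 without M1 and M2. Tceal and Bex genes, related X-linked genes in a list chosen after values were seen, were below Dp16 in 11 of 11, with a median of -0.18 and 7 at an unadjusted p under 0.05, beside 4.60% of all genes that were lower at that level. Bex2 was at 133.5, 135.5, 157.8, 147.2 and 137.3 RPKM against 153.05 through 167.4 to 235.0, with a log2 difference of -0.34. Heat shock genes split into 7 and 5, with Hspb1, a small heat shock protein, at 0.53 and apart in all libraries. Interferon response genes split into 11 and 15, and glucocorticoid and metallothionein genes into 6 and 10.

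Markers of the cells of the hippocampus gave no call. Dentate granule neuron markers split into 7 above and 5 below, CA1 markers into 2 and 6, and CA2 and CA3 markers into 4 and 8, with medians between -0.04 and 0.02. The granule neuron marker Calb1 was at 0.21 with libraries that did not overlap. Interneuron markers were below Dp16 in 12 of 16, with a median of -0.05, Htr3a at -0.27, Lhx6 at -0.16 and Sst at -0.15. Astrocyte markers split into 10 and 4 (median 0.07, with Gfap at -0.20), microglia markers into 7 and 8, endothelial and mural markers into 11 and 5, and oligodendrocyte precursor markers into 7 and 3. Oligodendrocyte and myelin markers split into 10 and 10 with a median of -0.01. Ependymal markers were above Dp16 in 12 of 12, with a median of 0.24 that was 0.01 in batch 2, and meningeal and collagen genes in 15 of 20, with 0.72 in batch 1 and -0.26 in batch 2. Of neighbouring tissue, thalamus markers were above Dp16 in 9 of 10, striatum markers in 5 of 10 and neocortex markers in 4 of 9. Haemoglobin and erythroid genes split into 1 above and 5 below. The part of these differences in cell and tissue content in the other results was not tested.

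**Figure D5:**
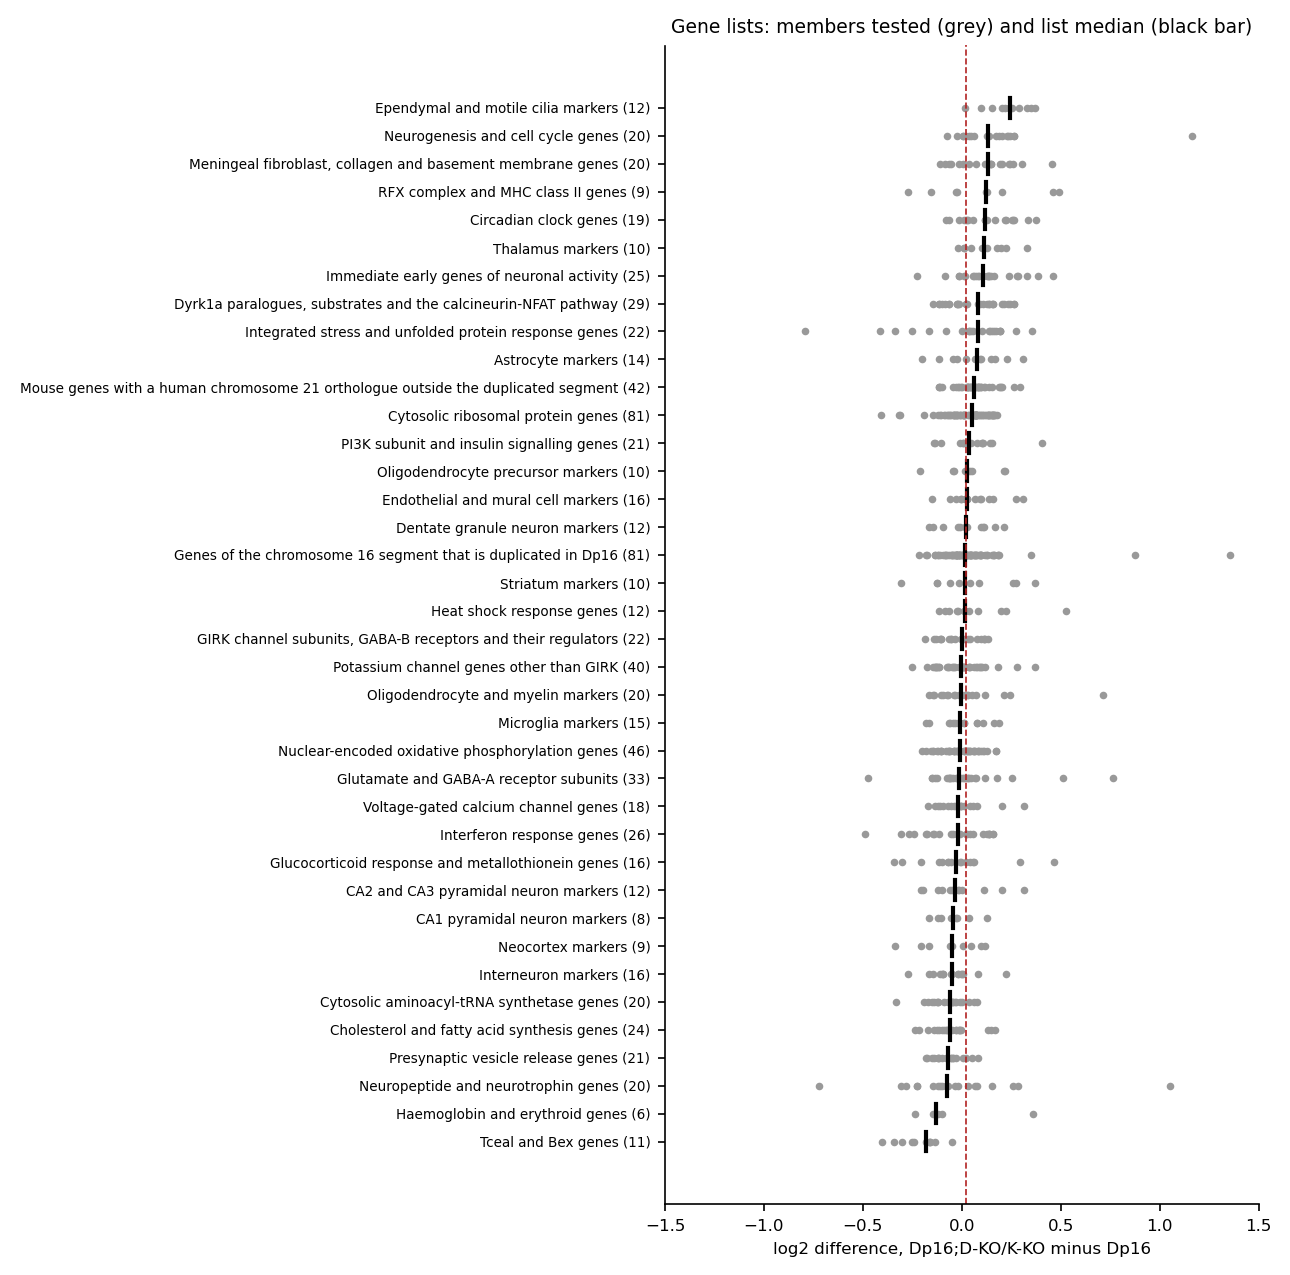
Log2 difference of Dp16;D-KO/K-KO minus Dp16 (horizontal axis) for each tested gene (grey points) of the gene lists, with the list median as a black bar, the median of all genes as a dashed red line, and the number of tested genes in parentheses. The choroid plexus, cerebellar, muscle, copy-variable and sex chromosome lists are not drawn. Most medians lie near the dashed line at 0.02, with Tceal and Bex genes at -0.18 and ependymal markers at 0.24 at the ends.

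The comparison with Dp16/D-KO, which lacks the Kcnj6 alteration only, shares the Dp16;D-KO/K-KO libraries with the present one, and Dp16/D-KO against Dp16 shares the Dp16 libraries, so their values are set side by side without a measure of likeness. No gene was called by limma between Dp16;D-KO/K-KO and Dp16/D-KO, where 1260 genes (9.02%) had an unadjusted p under 0.05, and 20 genes (0.143%) were called between Dp16/D-KO and Dp16. Rfx5 had log2 differences of 0.10 and 0.40 in these comparisons, of which the second passed the test (limma adjusted p = 0.0243). Pik3r3 had 0.21 and 0.20, Rec8 0.63 and 0.84, Tmem181a 0.47 and 0.38, and Dynlt1f 0.57 and 0.37, none passing. Atf4 had -0.21 and -0.20, and Chac1 -0.24 and -0.55, none passing either. Against WT, where 202 genes (1.45%) were called, Dp16 had log2 differences of -0.48 for Rfx5 (limma adjusted p = 0.000339) and -0.30 for Pik3r3 (limma adjusted p = 0.0201). The difference between Dp16;D-KO/K-KO and Dp16 itself was tested for interaction with batch and with the sex letter. In either test limma called no gene, with 784 (5.61%) and 324 (2.32%) at an unadjusted p under 0.05. The batch 1 libraries of Dp16;D-KO/K-KO were M1 and M2, and F1 and F2 were in batch 2. Each interaction was fitted without the other, so differences by batch and by letter cannot be fully told apart.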

How the data were processed

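Messenger RNA was sequenced from 23 hippocampal libraries and, per the submitters' processing notes, aligned with HISAT to mm10. Library preparation used oligo(dT) beads per the labels' protocols. The deposited table holds RPKM per gene and library, rounded to 2 decimals, and the authors' own log2 fold change, p-value and adjusted p-value for each comparison. The read counting, the gene lengths and the authors' test are unstated in the labels. Of 21785 genes, 2721 had no value. Steps between low RPKM values of 663 short genes put the depth at about 15.15 to 17.55 M reads per library, with 53.3% to 62.8% of values within 0.15 read of a whole number where 30% would be by chance, so reads were not recovered and no counting interval was computed. Values were transformed to log2(RPKM + 0.1), and genes averaging at least 0.5 RPKM were tested with limma 3.58.1 (R 4.3.3, intensity trend) in 1 model of all 23 libraries with batch and sex letter, two-sided, with Benjamini-Hochberg adjustment over all tested genes. The fit was tested on simulated data. A fold change on this scale understates the change of low genes. 1 column that matched no sample was not used.

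The genes named are Dyrk1a and Kcnj6, every called gene, the genes of smallest p and mean of at least 1 RPKM up to 20, and the members of smallest p in each list, of which some are given, while further members named for a level or an extreme value were chosen after values were seen. Members and lists were chosen with earlier results of these data known. Alternatives covered the pseudocount, filter, scaling, covariates, batches, libraries left out and the replicate label as a block. Deviations of same-labelled libraries correlated between -0.22 and 0.18 over 5 pairs, so labels were not taken to pair libraries. Promoter windows came from RefSeq, matched by gene ID.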

Additional observations from a re-analysis of the deposited data

Results flagged for a closer look

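Single libraries far from the rest of their group were looked for in the named genes and in the summed RPKM of each list. In 130 groups 14 were found, where chance alone gives about 1 in 20, or 6.5. Among Dp16;D-KO/K-KO libraries, M3 was high for Fam217b at 13.65 RPKM and for Entpd4b at 27.53 RPKM, in both cases towards the Dp16 values. F1 was low for the summed copy-variable genes of Tmem181a, Dynlt1 and Entpd4 at 151.8 RPKM, where the next library was at 207.6. M2 was high for the summed cerebellar markers at 240.1 RPKM, with the next at 52.26.

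Among Dp16 libraries, M2 was high for N4bp2 at 2.31 RPKM and for skeletal muscle genes at 450.7 RPKM, and low for glutamate and GABA-A receptor subunits at 1109 RPKM. M4 was high for Ncald at 166.4 RPKM, for neocortex markers at 138.9 RPKM and for neurogenesis genes at 316.7 RPKM. F1 was low for oligodendrocyte and myelin markers at 2545 RPKM and for glucocorticoid response genes at 741.1 RPKM. M1 was low for endothelial and mural markers at 165.9 RPKM, and F2 was high for meningeal and collagen genes at 1437 RPKM.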

How the results depend on the processing

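The number of genes called by limma, 5 in the comparison as reported, was 16 with the 12 libraries of the groups alone, 11 without the WT group, 10 after median-ratio scaling, 2 with the sex letter but no batch term, 1 in batch 1 alone and 0 in batch 2 alone, and the authors' deposited table has 44. Of the 16, 4 were among the 5. Leaving out 1 library at a time gave 0 to 7 calls. Without the Dp16;D-KO/K-KO libraries M1 and M2, a setting chosen after seeing the data, it was 0, with 941 genes at an unadjusted p under 0.05, and batch 2 alone had 818. With the replicate label as a block, which does not pair these libraries, 4 genes were called, all of them among the 5. Without the Dp16 libraries F2, F3 and M2, which are rich in choroid plexus transcripts, 6 were called, 4 higher and 2 lower, and of the 5 only Rec8 was among them. With the choroid plexus marker mean as a covariate, also chosen after seeing the data, 5 were called. Without the WT libraries F1 and M3, 7 were called, 4 of them among the 5. Dyrk1a changed sign in batch 1 alone (-0.010), with the replicate block (-0.0073) and in the authors' deposited table (-0.0095), and Kcnj6 in batch 2 alone (0.085) and without M1 and M2 (0.047). None of the 20 genes named for their small p-values changed sign under an alternative run here. Over the 20 named genes and these alternatives, 553 values kept their side of the threshold, 51 lost a call and 36 gained one. Only the 5 called genes could lose a call. Of 32 alternatives, Rfx5 was called in 25, Pik3r3 in 24, Tmem181a in 24, Dynlt1f in 23 and Rec8 in 13. Of the list medians, 1311 moved by less than 1 SD between replicates and 22 by more. That SD was wide for some lists, at 1.95 for choroid plexus markers. Their median went from 0.86 to -0.55 in batch 2 alone and still counted as not moved, so the count is no measure of stability there. The depth of each library is known only as an estimate.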
